A study of Mus musculus with 8 samples.

Results

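Imprinted genes are transcribed mainly from the copy inherited from 1 parent, and 38 of them were followed here in mouse embryonic stem cells (ESCs) depleted of the acetyltransferase Tip60, of the deacetylase Hdac6, or of both. The 38 genes were chosen by name, and every non-control probe carrying 1 of those names in the scanner files was taken, which gave 65 of the 39429 probes on the arrays. Of the 38, 37 had a probe, among 30175 gene names in all, and Rian had none. The E14 ESCs were grown without feeders, in serum with LIF, and were infected with lentivirus expressing a short hairpin RNA. RNA was collected 72 hours after infection. Each of 4 groups held 2 biological replicates, A and B: control KD (knockdown with a hairpin against EGFP), KD of Tip60, KD of Hdac6, and double KD with hairpins against both. The cells of all 4 groups therefore carried a lentiviral hairpin, and no uninfected cells were among them. All groups come from the same cell line, E14, and per the methods each gene was targeted with 1 hairpin, the strongest of those screened, which limits the groups as a model.

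Imprints are laid down as DNA methylation in the egg or sperm, at control regions that each govern a cluster of genes. After fertilization the zinc finger protein Zfp57 and its partner Trim28 protect that methylation, and Dppa3 and the methyltransferase Dnmt1 take part in keeping it. Many imprinted genes act on growth of the fetus and placenta, and several are silent or nearly so in ESCs. The arrays measured the RNA of both alleles together, so the parental allele given for a gene below is background and was not measured. The comparisons ask how depletion of Tip60, of Hdac6 and of both changes steady-state RNA, and whether the 2 single KDs alter the same genes. In these bulk samples, fewer cells expressing a gene and less of its RNA per cell cannot be told apart.

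The hairpins reduced their targets on the arrays. On the scale used throughout, log2 signal relative to the 75th percentile of the same array (scaled log2 signal), Kat5, the gene for Tip60, was 1.34 and 1.37 in control KD, 0.00 and 0.01 upon Tip60 KD, 1.52 and 1.53 upon Hdac6 KD, and -0.11 and 0.20 in double KD. The RNA of Hdac6 was 2.21 and 2.18 in control KD, 1.74 and 1.77 upon Tip60 KD, -0.28 and -0.32 upon Hdac6 KD, and 0.30 and 0.34 in double KD. Depletion of Hdac6 RNA was thus weaker in double KD than upon Hdac6 KD alone (difference 0.62 ± 0.07 SE, limma adjusted p = 0.015). Between 21896 and 40609 of the 43020 spots were well above background on an array, the fewest on control KD replicate B. That array also set the floor of -2.71 below which scaled log2 signals were not read. All 10 listed ESC markers, Pou5f1, Nanog and Sox2 among them, were measured, with a summed scaled signal of 337 to 371 over the 8 arrays. By the rule given below, 3 of the 10 were called upon Tip60 KD, 2 upon Hdac6 KD and 4 in double KD. These shares of 30%, 20% and 40% stood beside 39.7%, 28.9% and 32.8% of all genes. Of these calls 3, 2 and 3 were higher and 0, 0 and 1 lower. Sox2 went from 4.37 and 4.16 in control KD to 3.99 and 3.84 in double KD (-0.35). Pou5f1 itself was 3.16 and 3.13 in control KD, 4.17 and 4.13 upon Tip60 KD, 3.68 and 3.55 upon Hdac6 KD, and 3.93 and 3.60 in double KD, changes of 1.01, 0.47 and 0.63 that were called.

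Of the 37 genes with a probe, 29 were tested, having a probe that exceeded the floor on 2 arrays or more. They are not the whole set. The 8 genes Peg12, Zdbf2, Nap1l5, Dcn, Zim1, Dio3, Kcnq1ot1 and Inpp5f stayed at the floor on nearly every array and were not tested. Among the 29, 23 lay above the floor on all 8 arrays, while Igf2, Peg3, Usp29, Dlk1, Grb10 and Nnat sat at the floor on 1 to 5 arrays. A gene was called changed at an adjusted p under 0.1 in limma, adjusted over the 18116 genes tested, and was read from its brightest probe. That fit did not pair the replicates by letter.

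Upon Tip60 KD 12 of the 29 genes changed (41.4%), while 39.7% of all genes did. Of these 4 rose and 8 fell, where 19.7% of all genes rose and 20.0% fell. Upon Hdac6 KD 10 changed (34.5%), against 28.9% of all genes. Of these 7 rose and 3 fell, where 14.0% of all genes rose and 14.9% fell. In double KD 12 changed (41.4%), against 32.8% of all genes. Of these 6 rose and 6 fell, where 15.9% of all genes rose and 16.9% fell. With the replicate letter as a block in the fit, 19, 17 and 19 of the 29 were called, and 60.8%, 52.9% and 55.4% of all genes. The shares with and without the block were not far from those of all genes. Imprinted genes as a class thus did not stand out by the number called at an adjusted p under 0.1 with no minimum change. The median log2 change over the 29 was 0.05, 0.07 and 0.10 upon Tip60 KD, Hdac6 KD and double KD, beside 0.06, 0.03 and 0.05 over all genes. Of 13 genes listed as maternally expressed 7, 8 and 8 changed in the 3 comparisons. Of 15 listed as paternally expressed 5, 2 and 4 changed. Among the maternal genes, Ascl2, Cd81 and Tssc4 are imprinted mainly in placenta, Ppp1r9a mainly in extraembryonic tissue and Ube3a in neurons. Their listed allele therefore need not hold in ESCs. Over the 3 comparisons together neither allele class moved in 1 direction, though the 2 paternal calls upon Hdac6 KD were both higher. Of the maternal genes 2, 5 and 4 rose and 5, 3 and 4 fell, and of the paternal genes 2, 2 and 2 rose and 3, 0 and 2 fell. The 3 comparisons share the control KD arrays, so their calls are not independent of each other.

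**Figure D1:**
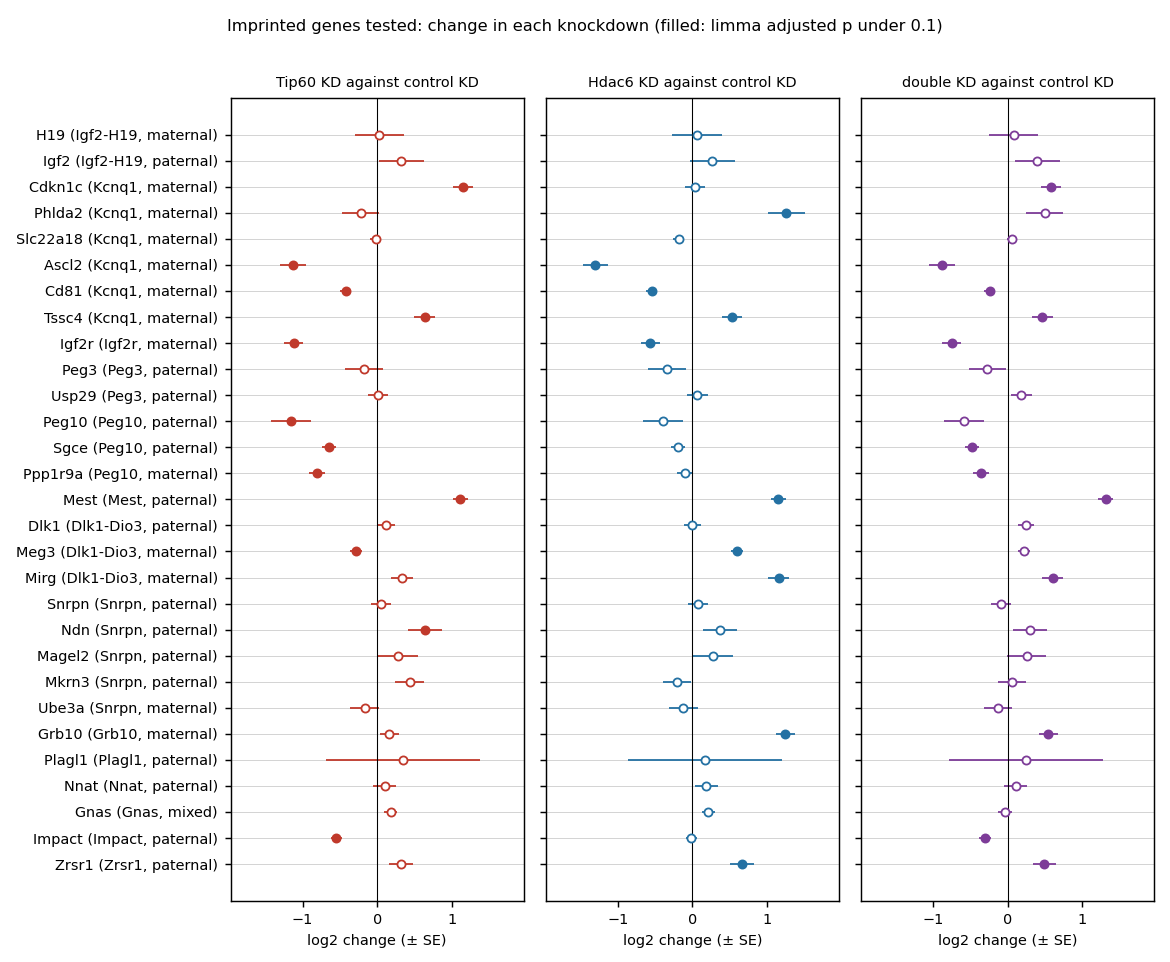
Log2 change against control KD (horizontal axis, ± SE from limma) of the 29 imprinted genes tested, 1 row a gene with its cluster and expressed allele, with a panel each for KD of Tip60, of Hdac6 and of both (2 arrays a group); filled points have an adjusted p under 0.1. Mest lies to the right in all 3 panels (1.11, 1.15 and 1.31), Ascl2 and Igf2r to the left in all 3, and Meg3 on opposite sides upon Tip60 KD (-0.29) and Hdac6 KD (0.60).

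In all, 16 genes changed in at least 1 KD and 13 in none. Mest and Tssc4 rose in all 3 KDs, and Ascl2, Cd81 and Igf2r fell in all 3. Meg3 alone of the 29 was called in opposite directions, lower upon Tip60 KD and higher upon Hdac6 KD. Called changes of at least 2-fold were seen in 8 genes in 1 KD or more, namely Mest, Cdkn1c, Phlda2, Ascl2, Igf2r, Peg10, Mirg and Grb10, the last counted from the floor. That was 5 of the 29 upon Tip60 KD, 5 upon Hdac6 KD and 1 in double KD, beside 4.98%, 2.45% and 2.93% of all genes. With this minimum the share of the 29 was above that of all genes in the single KDs. It rests on few genes, and the difference was not tested.

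Mest, a paternally expressed gene that encodes a hydrolase-like protein linked to growth, showed the largest rise of the 29 in double KD. Its brightest probe (chr6:30698279-30698338, mm9) gave scaled log2 signals of 2.42 and 2.27 in control KD, 3.52 and 3.40 upon Tip60 KD, 3.55 and 3.43 upon Hdac6 KD, and 3.72 and 3.59 in double KD. All 6 KD arrays were above both control arrays, and the rise was 1.11 ± 0.10 (SE) upon Tip60 KD, 1.15 ± 0.10 upon Hdac6 KD and 1.31 ± 0.10 in double KD, with limma adjusted p of 0.0013, 0.0026 and 0.0016. The other two probes for Mest rose as well. The probe at chr6:30692160-30692219 went from -1.69 and -1.66 in control KD to 0.43 and 0.37 upon Tip60 KD, -0.14 and -0.18 upon Hdac6 KD, and -0.20 and -0.15 in double KD. For that probe Tip60 KD stood above Hdac6 KD by 0.56 ± 0.07 (adjusted p = 0.0070 in limma with each probe as its own row), whereas the brightest probe showed a difference of -0.04 ± 0.10. No exon assignment was available in that build, so which Mest transcripts the probes share is not given here.

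The Kcnq1 cluster on chromosome 7 held the most changes, 4 of its 6 tested genes in each KD where 39.7%, 28.9% and 32.8% of all genes were called, but they did not move together. Cdkn1c, which encodes the cyclin-dependent kinase inhibitor p57, was -0.82 and -1.05 in control KD and 0.32 and 0.11 upon Tip60 KD. Upon Hdac6 KD it was -0.87 and -0.93, and in double KD -0.25 and -0.46. Tip60 KD and double KD lay above control KD on both arrays, and Hdac6 KD overlapped it. The changes were 1.15 ± 0.13 (adjusted p = 0.0023), 0.03 ± 0.13 (adjusted p = 0.91) and 0.58 ± 0.13 (adjusted p = 0.026) upon KD of Tip60, of Hdac6 and of both, by limma. Tip60 KD exceeded Hdac6 KD by 1.11 ± 0.13 (limma adjusted p = 0.0061).

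Phlda2, a growth-restraining gene of the same cluster as Cdkn1c, showed the reverse pattern. It was 0.29 and -0.13 in control KD, 0.16 and -0.43 upon Tip60 KD, 1.44 and 1.24 upon Hdac6 KD, and 0.73 and 0.43 in double KD. It was highest upon Hdac6 KD, above all other groups, while Tip60 KD overlapped control KD. The rise upon Hdac6 KD was 1.25 ± 0.25 (limma adjusted p = 0.020), and Tip60 KD lay below Hdac6 KD by 1.47 on the log2 scale (-1.47 ± 0.25, limma adjusted p = 0.015). In double KD the difference of 0.50 ± 0.25 was not called (limma adjusted p = 0.21), but it was with the replicate letter as a block (adjusted p = 0.012).

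Ascl2, a transcription factor required for trophoblast, and 2 other genes of the cluster, Cd81 and Tssc4, are imprinted mainly in placenta. Ascl2 was -0.40 and -0.43 in control KD, -1.54 and -1.53 upon Tip60 KD, -1.82 and -1.60 upon Hdac6 KD, and -1.54 and -1.04 in double KD. It fell by 1.12, 1.30 and 0.88 on the log2 scale (SE 0.17 each, limma adjusted p = 0.0057, 0.0069 and 0.017). Cd81, a tetraspanin of the cell surface, went from 4.75 and 4.65 to 4.26 and 4.31, 4.17 and 4.14, and 4.45 and 4.47 in the same order, changes of -0.42, -0.55 and -0.24. Tssc4 moved the other way. It rose from 0.38 and 0.52 to 1.00 and 1.17 upon Tip60 KD, 0.85 and 1.12 upon Hdac6 KD, and 0.80 and 1.03 in double KD, changes of 0.64, 0.53 and 0.46 with limma adjusted p of 0.018, 0.046 and 0.062. The call for Cd81 in double KD held in 9 of 19 alternative settings and that for Tssc4 in 12. Slc22a18, a transporter-like gene of the same cluster, gave -0.02, -0.19 and 0.06 and was not called, except upon Hdac6 KD with the replicate block (adjusted p = 0.035).

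**Figure D2:**
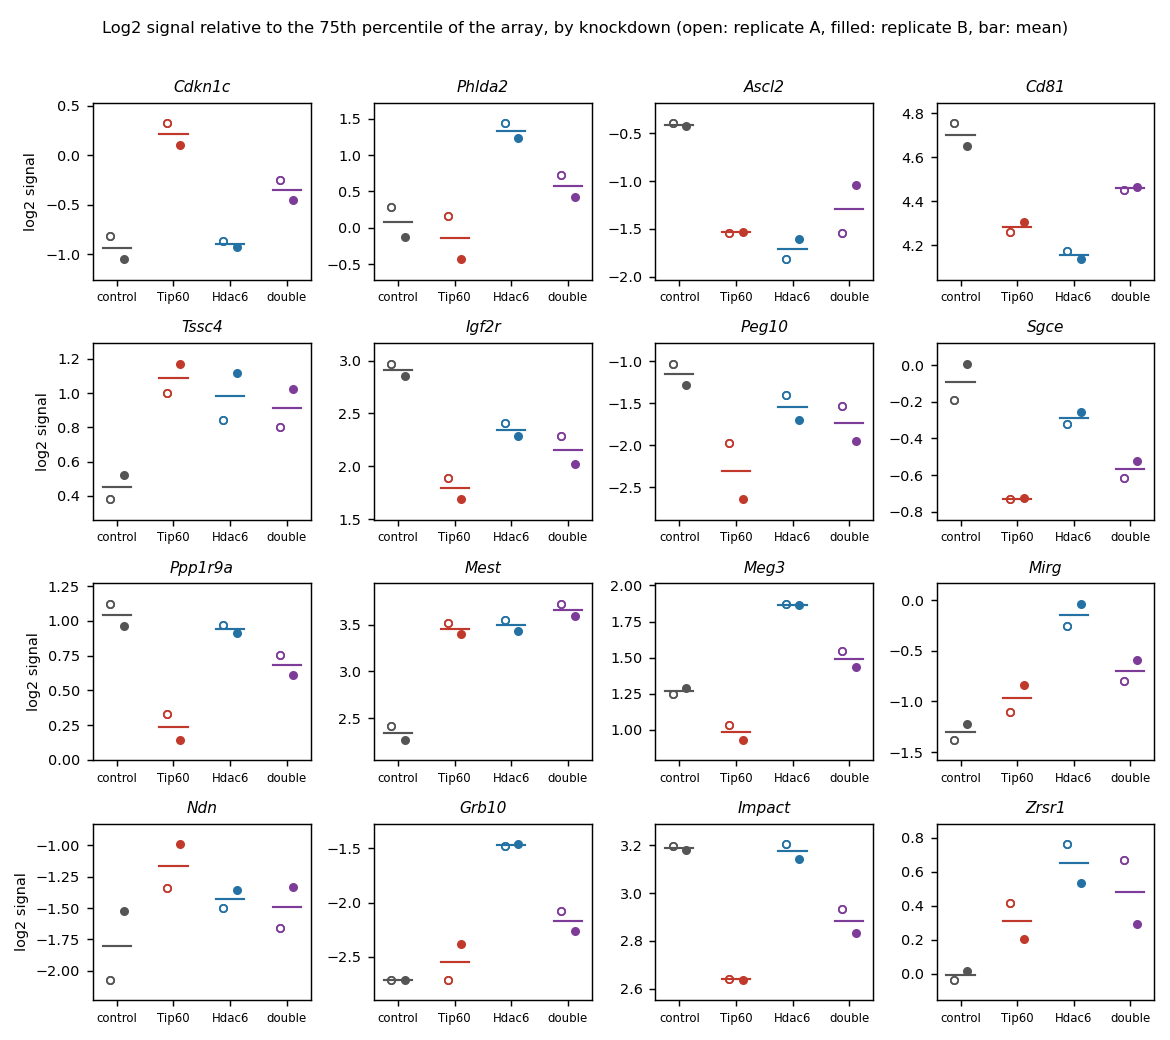
Scaled log2 signal (vertical axis, log2 relative to the 75th percentile of the array; axes differ between genes) of the 16 imprinted genes called in at least 1 KD, in each of the 4 groups; open points are replicate A, filled points replicate B and bars the mean of the 2. Mest is above control KD on all 6 KD arrays, Cdkn1c is high upon Tip60 KD and near control KD upon Hdac6 KD, and Phlda2 and Grb10 are highest upon Hdac6 KD. The mean of double KD lies between those of the single KDs for Cdkn1c, Phlda2, Meg3, Mirg, Grb10, Impact, Igf2r, Peg10, Sgce, Ppp1r9a and Zrsr1.

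Igf2r, the maternally expressed receptor that removes Igf2 from the cell surface, was lower in every KD. It was 2.97 and 2.85 in control KD, 1.90 and 1.69 upon Tip60 KD, 2.41 and 2.28 upon Hdac6 KD, and 2.29 and 2.03 in double KD. No KD array reached the control arrays. It fell by 1.12, 0.56 and 0.75 (SE 0.13 each, limma adjusted p = 0.0023, 0.031 and 0.011), and Tip60 KD lay below Hdac6 KD by 0.56 ± 0.13 on the log2 scale (-0.56, limma adjusted p = 0.038). Its ligand Igf2 and the adjacent noncoding RNA H19 were low in all groups, between -2.71 and -1.40 for the probes used, and neither was called. With the replicate block Igf2 was called in all 3 KDs (0.32, 0.27 and 0.39, adjusted p = 0.049, 0.097 and 0.029).

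The 3 tested genes of the Peg10 cluster on chromosome 6 fell together upon Tip60 KD. Peg10, a retrotransposon-derived gene needed for placenta, was -1.03 and -1.28 in control KD, -1.98 and -2.64 upon Tip60 KD, -1.41 and -1.69 upon Hdac6 KD, and -1.53 and -1.95 in double KD. Its change upon Tip60 KD was -1.16 ± 0.27 (limma adjusted p = 0.021). The other probe for Peg10, which was dimmer, gave 0.09 ± 0.46 in the same comparison, so the fall rests on the brighter probe. The -0.40 upon Hdac6 KD and -0.59 in double KD were not called (limma adjusted p = 0.37 and 0.17), but both were with the replicate block (0.035 and 0.0090).

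Sgce, which encodes epsilon-sarcoglycan and shares its promoter region with Peg10, was -0.19 and 0.01 in control KD, -0.73 and -0.73 upon Tip60 KD, -0.32 and -0.26 upon Hdac6 KD, and -0.61 and -0.52 in double KD. Ppp1r9a, the neurabin gene of the cluster, is imprinted mainly in extraembryonic tissue. It was 1.12 and 0.97, 0.33 and 0.15, 0.97 and 0.91, and 0.76 and 0.61 in the same order. Both were lowest upon Tip60 KD, where Sgce fell by 0.64 and Ppp1r9a by 0.81 on the log2 scale. Double KD was intermediate, with changes of -0.48 and -0.36 that were called. Upon Hdac6 KD the changes were -0.20 and -0.10 and were not called, although that of Sgce was with the replicate block (adjusted p = 0.057). The difference between Tip60 KD and Hdac6 KD was called for both, at -0.44 ± 0.09 for Sgce and -0.70 ± 0.11 for Ppp1r9a (limma adjusted p = 0.029 and 0.012).

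The maternally expressed noncoding RNAs of the Dlk1-Dio3 cluster on chromosome 12 rose upon Hdac6 KD. Because Meg3 and Mirg are long, spliced RNAs read by probes far apart, sequences that measured them are shown, as printed in the scanner files in lower case, with no capitals. The first is the brighter Meg3 probe (chr12:110809678-110809737, plus strand, mm9), the second the brighter Mirg probe (chr12:110987569-110987628) and the last the dimmer Mirg probe (chr12:110979653-110979712).
Meg3 brighter: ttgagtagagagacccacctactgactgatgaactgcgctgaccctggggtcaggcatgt
Mirg brighter: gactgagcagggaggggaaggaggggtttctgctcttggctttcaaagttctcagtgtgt
Mirg dimmer: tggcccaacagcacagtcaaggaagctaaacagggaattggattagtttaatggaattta

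The brighter Meg3 probe was 1.25 and 1.29 in control KD, 1.03 and 0.93 upon Tip60 KD, 1.87 and 1.86 upon Hdac6 KD, and 1.55 and 1.43 in double KD. The 4 groups did not overlap. The change was -0.29 ± 0.08 upon Tip60 KD (limma adjusted p = 0.041) and 0.60 ± 0.08 upon Hdac6 KD (limma adjusted p = 0.0070). The dimmer Meg3 probe was -1.82 and -2.22 in control KD, -1.92 and -2.04 upon Tip60 KD, -0.80 and -0.94 upon Hdac6 KD, and -1.48 and -1.67 in double KD. It rose by 1.15 ± 0.16 upon Hdac6 KD, and its 0.04 ± 0.16 upon Tip60 KD was not called, so the fall of Meg3 upon Tip60 KD was seen with 1 of its 2 kept probes. The double KD change of the brighter probe, 0.22 ± 0.08, just missed the threshold (limma adjusted p = 0.1005) and passed it with the replicate block (adjusted p = 0.033).

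Mirg, a host transcript of microRNAs, was -1.38 and -1.23 in control KD, -1.10 and -0.84 upon Tip60 KD, -0.25 and -0.04 upon Hdac6 KD, and -0.80 and -0.59 in double KD at its brighter probe. Hdac6 KD was highest on both arrays, with a change of 1.16 ± 0.14 (limma adjusted p = 0.0056), and double KD was higher by 0.60 ± 0.14 (limma adjusted p = 0.030). The 0.33 ± 0.14 upon Tip60 KD was not called (limma adjusted p = 0.13), but it was with the replicate block (adjusted p = 0.0046). The dimmer Mirg probe was at the floor in control KD and Tip60 KD and at -1.72 and -1.60 upon Hdac6 KD. Tip60 KD lay below Hdac6 KD by 0.88 ± 0.08 for Meg3 and 0.82 ± 0.14 for Mirg on the log2 scale (-0.88 and -0.82, limma adjusted p = 0.0036 and 0.016). Dlk1, the paternally expressed Notch-ligand-like gene of the cluster, was at the floor on 5 of 8 arrays and was not called, except in double KD with the replicate block (0.24, adjusted p = 0.058).

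**Figure D3:**
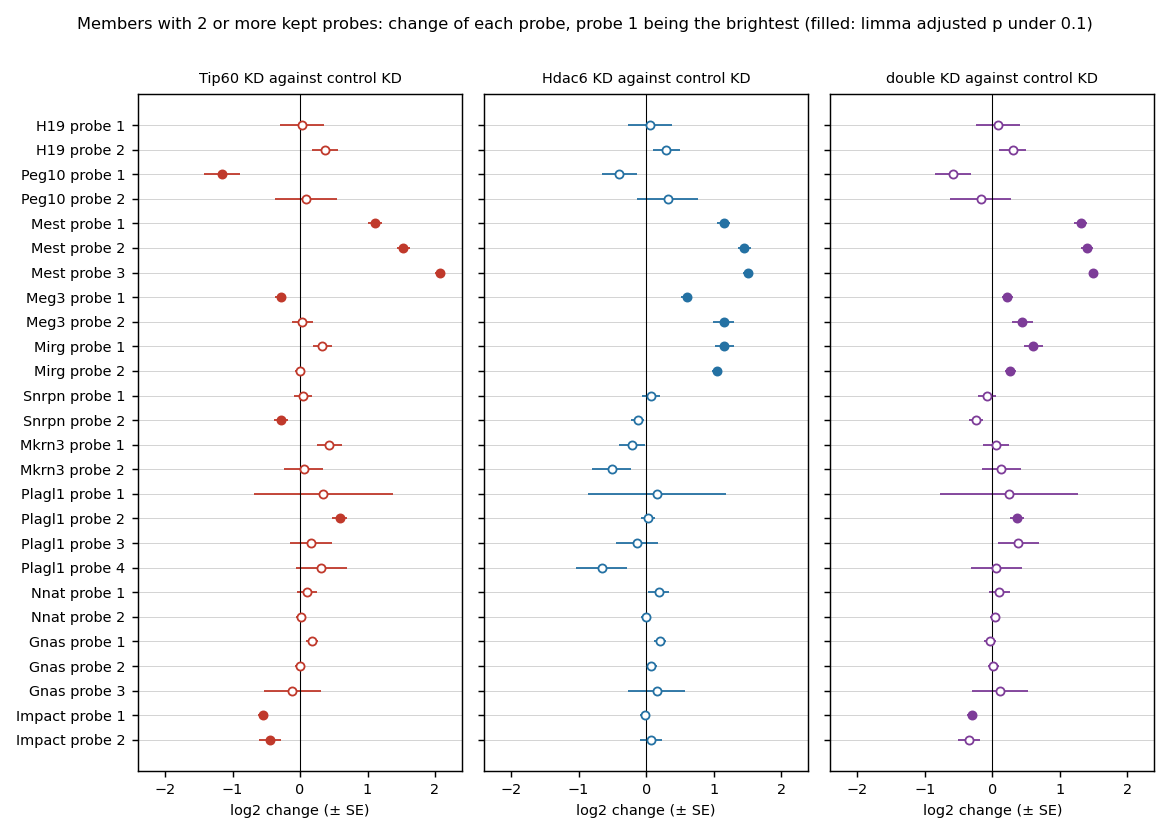
Log2 change against control KD (horizontal axis, ± SE) of every kept probe of the 11 imprinted genes that had at least 2, with a panel for each KD; probe 1 is the brightest, and filled points have an adjusted p under 0.1 in a limma fit with each probe as its own row. All 3 Mest probes and, upon Hdac6 KD, both probes of Meg3 and of Mirg lie to the right of 0, while the second Peg10 probe (0.09 upon Tip60 KD) does not follow the first (-1.16). The second Mirg probe was kept only through Hdac6 KD and double KD, where it exceeded the floor.

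Across the 11 genes with at least 2 kept probes, no gene had probes called in opposite directions in any of the 6 comparisons between groups. Mest, Meg3 and Mirg had at least 2 probes called upon Hdac6 KD, and Mest and Impact upon Tip60 KD. The dimmer Mirg probe exceeded the floor only upon Hdac6 KD and in double KD and was kept through those groups alone. Its call there is therefore no separate support for the brighter probe. Where only 1 probe exists, as for 16 of the 37 genes, among them Cdkn1c, Phlda2, Ascl2, Igf2r, Sgce and Grb10, the change has no second probe to set beside it.

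Grb10, an adaptor that restrains insulin and growth factor signalling, was at the floor of -2.71 on both control KD arrays. It was at the floor and at -2.38 upon Tip60 KD, at -1.48 and -1.46 upon Hdac6 KD, and at -2.07 and -2.26 in double KD. The rise of 1.24 ± 0.13 upon Hdac6 KD (limma adjusted p = 0.0038) is counted from the floor, and so is the 0.54 ± 0.13 in double KD (limma adjusted p = 0.031). The probe exceeded the floor on no control KD array and was kept mainly through Hdac6 KD and double KD. Values at the floor do not vary, so the spread of control KD does not enter these SE and adjusted p. The calls are therefore no separate support for a rise. Over the 18 alternative settings that gave a value, the rise upon Hdac6 KD was 1.01 to 1.93, the 1.93 being with a lower floor. In double KD it was 0.26 to 1.23, and the call was lost in 6 of the 18.

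Impact, which inhibits the amino acid sensor kinase Gcn2, was 3.20 and 3.18 in control KD, 2.64 and 2.64 upon Tip60 KD, 3.21 and 3.14 upon Hdac6 KD, and 2.93 and 2.83 in double KD. It fell upon Tip60 KD by 0.55 (SE 0.07, limma adjusted p = 0.0038) and in double KD by 0.30 (limma adjusted p = 0.033), and it was -0.01 ± 0.07 upon Hdac6 KD. Its second probe changed by -0.44 upon Tip60 KD, where it was called, and that probe had no value on control KD replicate B. Zrsr1, a retrogene related to the splicing factor U2af, was -0.04 and 0.02 in control KD, 0.42 and 0.21 upon Tip60 KD, 0.76 and 0.54 upon Hdac6 KD, and 0.67 and 0.29 in double KD. It rose by 0.66 upon Hdac6 KD (limma adjusted p = 0.036) and 0.49 in double KD (limma adjusted p = 0.075), and its 0.32 upon Tip60 KD was called only with the replicate block (adjusted p = 0.049). The calls upon Hdac6 KD and in double KD were lost in 4 and 10 of 19 alternative settings.

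The Snrpn cluster on chromosome 7 changed little. Snrpn, which encodes a splicing protein, lay between 2.47 and 2.86 on all 8 arrays, and its changes of 0.05, 0.07 and -0.08 were not called. Ndn, a MAGE family gene, was -2.07 and -1.53 in control KD and -1.34 and -0.99 upon Tip60 KD, a rise of 0.63 ± 0.23 (limma adjusted p = 0.085) that was called in 8 of 19 alternative settings. Its 0.37 upon Hdac6 KD and 0.30 in double KD were called with the replicate block (adjusted p = 0.030 and 0.051). Mkrn3, a ubiquitin ligase gene, was -1.71 and -1.76 upon Tip60 KD and -2.66 and -2.10 upon Hdac6 KD, a difference of 0.64 ± 0.19 (limma adjusted p = 0.075) that was called in 6 of 19. Magel2 (0.28, 0.28 and 0.25) was called in the 3 KDs with the replicate block alone (adjusted p = 0.060, 0.074 and 0.089), and so was the 0.43 of Mkrn3 upon Tip60 KD (adjusted p = 0.087). Ube3a was not called. Gnas (3.82 to 4.19), which encodes the stimulatory G protein alpha subunit, and Nnat, Plagl1, Peg3 and Usp29 were not called against control KD either. With the replicate block Gnas was, upon Tip60 KD (0.18, adjusted p = 0.047) and Hdac6 KD (0.21, adjusted p = 0.033), and so was Plagl1 upon Tip60 KD (0.35, adjusted p = 0.039). For Plagl1 the replicates of every group lay more than 1 log2 unit apart at the brightest probe, with replicate A between -2.02 and -1.78 and replicate B between -0.35 and 0.10. A dimmer Plagl1 probe rose by 0.58 ± 0.11 upon Tip60 KD (adjusted p = 0.010 with each probe as its own row). The dimmer kept probe of Snrpn changed by -0.28 there (adjusted p = 0.086).

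The single KDs were then compared with each other. Between Tip60 KD and Hdac6 KD 10 of the 29 genes differed (34.5%), beside 23.5% of all genes (12.2% higher upon Tip60 KD and 11.3% lower). In the blocked fit 14 differed, beside 41.5% of all genes. The 4 added were Peg10 (-0.76, adjusted p = 0.0051), Zrsr1 (-0.34, adjusted p = 0.060), Slc22a18 (0.16, adjusted p = 0.062) and Ndn (0.26, adjusted p = 0.099). Cdkn1c (1.11) and Mkrn3 (0.64) were higher upon Tip60 KD. Phlda2 (-1.47), Grb10 (-1.08), Meg3 (-0.88), Mirg (-0.82), Ppp1r9a (-0.70), Igf2r (-0.56), Impact (-0.54) and Sgce (-0.44) were lower. For 7 of the 10 the call held in every alternative setting, the exceptions being Igf2r, Sgce and Mkrn3. Mest, Ascl2, Cd81 and Tssc4, which changed against control KD in both, showed differences of -0.04 ± 0.10, 0.18 ± 0.17, 0.13 ± 0.07 and 0.10 ± 0.14 between the single KDs, none called.

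Double KD differed from Tip60 KD in 1 gene, Meg3 (0.51 ± 0.08, limma adjusted p = 0.069), where 3.71% of all genes differed (1.15% higher in double KD and 2.56% lower). It differed from Hdac6 KD in 6 genes, where 10.1% of all genes differed (5.37% higher in double KD and 4.73% lower). Cdkn1c (0.55) and Cd81 (0.30) were higher in double KD than upon Hdac6 KD, and Grb10 (-0.70), Mirg (-0.55), Meg3 (-0.38) and Impact (-0.29) were lower. None of these 7 differences was called in every alternative setting, and leaving out any 1 array left 0 for Tip60 KD and 0 to 2 for Hdac6 KD. With the replicate block 12 genes differed between double KD and Tip60 KD and 15 between double KD and Hdac6 KD, where 26.2% and 29.4% of all genes did. Against Tip60 KD the 11 added were Phlda2 (0.72), Peg10 (0.57), Ppp1r9a (0.44), Grb10 (0.38), Igf2r (0.37), Mirg (0.27), Impact (0.24), Mest (0.20), Gnas (-0.21), Ndn (-0.33) and Cdkn1c (-0.57), with adjusted p of 0.011 to 0.096. Against Hdac6 KD the 9 added were Ascl2 (0.42), Slc22a18 (0.24), Dlk1 (0.24), Mest (0.16), Igf2r (-0.19), Gnas (-0.25), Ppp1r9a (-0.26), Sgce (-0.28) and Phlda2 (-0.76), with adjusted p of 0.0076 to 0.098. The effect of the Hdac6 hairpin differed between cells with and without the Tip60 hairpin in 10 of the 29, where 22.0% of all genes differed, and with the replicate block in 17, where 47.1% of all genes did.

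Among 30 listed factors that set, read or erase imprints, 28 were tested and 13 changed upon Tip60 KD, 8 upon Hdac6 KD and 9 in double KD (46.4%, 28.6% and 32.1%), beside 39.7%, 28.9% and 32.8% of all genes. In the blocked fit 19, 16 and 15 were called. The list as a whole thus did not stand out by the number called, and its members moved in both directions (6, 6 and 4 higher, 7, 2 and 5 lower). Zfp57, which binds methylated control regions, was 1.63 and 1.62 in control KD, 3.53 and 3.70 upon Tip60 KD, 2.29 and 2.50 upon Hdac6 KD, and 3.17 and 3.35 in double KD. It rose by 1.99 ± 0.12, 0.77 ± 0.12 and 1.63 ± 0.12 (limma adjusted p = 0.00061, 0.0095 and 0.0015), and its second probe rose in each as well. Trim28, the corepressor that Zfp57 recruits, rose by 0.95 ± 0.11 upon Tip60 KD. Dppa3, which guards methylation in the early embryo, fell by 1.45, 1.19 and 1.13 on the log2 scale in the 3 KDs. Dnmt3a, a de novo methyltransferase, fell by 1.73 ± 0.23 upon Tip60 KD and by 0.98 ± 0.23 in double KD, and Dnmt3b rose by 0.58 ± 0.09 upon Hdac6 KD. Rbbp4 fell by 0.49 upon Hdac6 KD, and the dioxygenase gene Tet2 rose by 0.72 in double KD. DNA methylation itself was not measured.

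**Figure D4:**
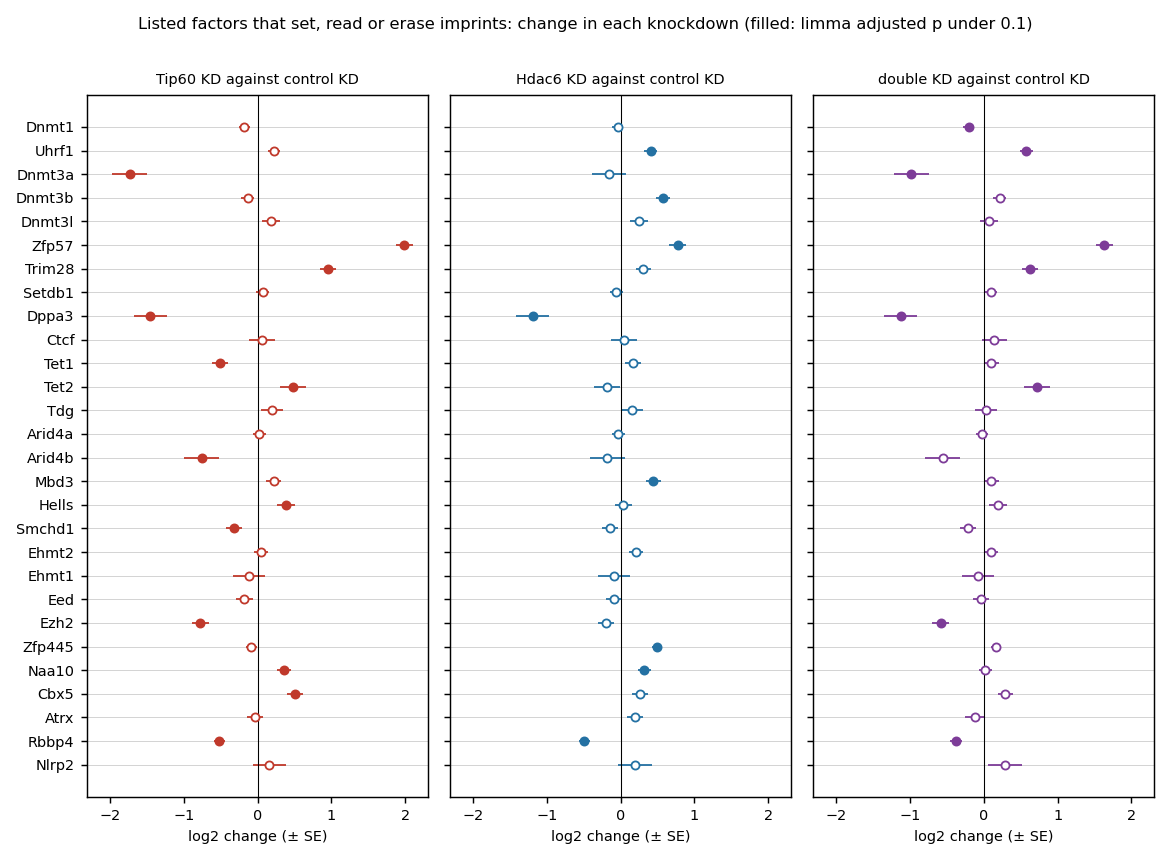
Log2 change against control KD (horizontal axis, ± SE) of the 28 tested factors that set, read or erase imprints, with a panel for each KD; filled points have a limma adjusted p under 0.1. Zfp57 lies far to the right in all 3 panels (1.99, 0.77 and 1.63), Dppa3 to the left in all 3, and Dnmt3a to the left upon Tip60 KD (-1.73) and in double KD (-0.98).

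Promoter windows of Mest and Meg3 are shown because Mest rose in all 3 KDs and Meg3 differed most clearly between the single KDs by its adjusted p. The windows chosen hold the 6-letter motif TGCCGC, which Zfp57 is known to bind when methylated. A further window of each gene, chr6:30733256-30733505 for Mest and chr12:109545148-109545397 for Meg3, holds no such motif and is not shown. The 250 bases before a RefSeq start (GRCm38.p6, both on the plus strand, 5′ to 3′) are printed in lower case, with the motif or its reverse complement in capitals.
Mest, chr6:30737800-30738049: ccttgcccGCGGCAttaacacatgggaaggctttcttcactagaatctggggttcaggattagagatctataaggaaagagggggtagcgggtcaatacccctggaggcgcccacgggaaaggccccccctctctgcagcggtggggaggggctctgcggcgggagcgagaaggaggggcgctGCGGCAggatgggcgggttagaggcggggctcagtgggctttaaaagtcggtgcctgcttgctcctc
Meg3, chr12:109540746-109540995: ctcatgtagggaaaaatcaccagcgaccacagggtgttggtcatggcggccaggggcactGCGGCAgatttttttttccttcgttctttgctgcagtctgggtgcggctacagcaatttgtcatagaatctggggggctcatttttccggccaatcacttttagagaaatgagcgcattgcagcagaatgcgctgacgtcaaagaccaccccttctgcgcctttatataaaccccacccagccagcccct

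Searched on both strands, TGCCGC was in 7 of 47 windows of the 32 imprinted genes in the RefSeq table (14.9%) and in 8.68% of 32851 windows of all genes. The 7 windows belong to Zdbf2, Mest (2 overlapping windows), Nap1l5, Zim1, Plagl1 and Meg3, of which Zdbf2, Nap1l5 and Zim1 were not tested. A match describes the letters of a window and is no evidence of binding, and Peg10, Dcn, Cdkn1c, Impact, Sgce and H19 had no window in the table.

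A second list held 54 other genes that lie in or beside the imprinted clusters, and 43 of them were tested. Of these, 16 changed upon Tip60 KD, 17 upon Hdac6 KD and 17 in double KD (37.2%, 39.5% and 39.5%), beside 39.7%, 28.9% and 32.8% of all genes, and 24, 26 and 21 with the replicate block. Pdk4, a kinase gene of the Peg10 region that inhibits pyruvate dehydrogenase, fell by 1.62, 1.45 and 1.34 on the log2 scale. Cars, the cysteinyl-tRNA synthetase gene beside the Kcnq1 cluster, fell by 1.40 upon Tip60 KD and 1.11 in double KD, and Mrpl23, a mitochondrial ribosomal protein gene next to H19, fell by 1.00, 0.93 and 0.83. Cep41, a centrosomal protein gene close to Mest, rose by 0.99 upon Tip60 KD, and Ddc, the decarboxylase gene next to Grb10, rose by 0.72 upon Hdac6 KD and 1.08 in double KD at its brightest probe. The NAD synthetase gene Nadsyn1 fell by 0.85 upon Hdac6 KD.

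Markers of other cell types moved with some of these changes. Of 9 trophoblast markers 4 were kept, with a summed scaled signal of 11.5 to 12.9 in control KD, 5.08 to 5.61 upon Tip60 KD, 9.26 to 10.2 upon Hdac6 KD and 5.72 to 6.69 in double KD. The sum followed Tfap2c (-1.38 upon Tip60 KD), which ESCs also express. Of the 4, 1 was called higher and 2 lower upon Tip60 KD, and the higher one was Eomes, at -1.53 and -1.74 in control KD and -0.69 and -0.89 upon Tip60 KD (0.84). Cdx2, Elf5, Hand1, Gata3 and Tpbpa were not kept. The 6 neural markers, all kept, summed to 2.45 to 2.66 in control KD, 4.77 to 5.04 upon Tip60 KD, 2.92 to 3.25 upon Hdac6 KD and 4.42 to 4.71 in double KD. The neural sum followed mainly Tubb3, at -0.42 and -0.74 in control KD and 1.35 and 1.41 upon Tip60 KD (1.96). Of the 6, 2 were called upon Tip60 KD (33.3%, beside 39.7% of all genes), both higher. Sox1 was -0.30 and -0.01 in control KD and -0.26 and -0.02 upon Tip60 KD, and Pax6 and Neurog2 were at or near the floor. The 5 of 8 fibroblast markers kept summed to 2.49 to 2.79 in control KD, 3.10 to 3.61 upon Tip60 KD, 2.26 to 2.33 upon Hdac6 KD and 3.24 to 3.46 in double KD. Col1a1, near the floor in control KD, rose by 0.98 upon Tip60 KD and 0.79 in double KD. Pdgfrb went the other way, with changes of -1.09 upon Hdac6 KD and -0.36 in double KD. Of the 5, 2 were called higher upon Tip60 KD and 0 lower. Upon Hdac6 KD 0 were higher and 1 lower, and in double KD 2 higher and 1 lower. Of the others, 2 of 8 endoderm and 1 of 5 mesoderm markers were kept. The part of these shifts in the changes of Ascl2, Peg10, Cdkn1c and the other imprinted genes was not tested.

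For the 3 genes with the largest changes, kept genes most alike over the 8 arrays were found by Pearson correlation among 17947 genes. Mest was most like Arf3 and Cfl1 (r = 0.996 for both), Ascl2 most like the expressed sequence BU705217 (r = 0.996), and Phlda2 most like Slc39a14 (r = 0.991) and Umps (r = 0.990). These values describe 8 arrays that share 4 groups, and no test was attached to them.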

How the data were processed

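Per the labels, total RNA from 8 ESC samples was amplified, labelled with Cy3 and hybridised to 1-colour Agilent mouse arrays. The authors deposited scanner files of fluorescence intensity made with Agilent Feature Extraction 10.7.1.1 (background-subtracted, detrended, not scaled between arrays) and a table of log2 values, whose medians were 8.19 to 8.20. That table ranked probes as the median signals did (Spearman rho 1), and how it was scaled is not given in the sources used here.

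Outlier spots were set to missing, probes averaged, and signals divided by the 75th percentile of the array, floored at -2.71 log2 (8.86% of values) and log2-transformed. For each array the lowest signal well above background was found, and the highest of these served as the floor. Probes above it on at least 2 arrays were kept, and a gene was represented by its brightest kept probe. limma 3.58.1 (R 4.3.3) fitted 4 group means with Benjamini-Hochberg adjustment over 18116 genes (4 residual and 1.84 prior degrees of freedom), after a test on simulated data.

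Per the headers, replicates A and B were on 2 slides, each with every group, and a group kept its position. Deviations of same-lettered arrays correlated at 0.65 to 0.80 in all 6 pairs of groups. The main fit nonetheless held no replicate term, so its counts, SE and adjusted p leave this pairing out. An alternative fit took the letters as a block, and its value for an imprinted gene is printed where it changes a call. Replicates correlated at 0.986 to 0.989. The labels call them biological, without naming separate cultures. The number of arrays limits precision.

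The imprinted genes and the lists were chosen with earlier results of these data known. Named were the targeted genes, every imprinted gene, and at most 4 genes of each list per comparison, those with the largest called change. Probe positions are those of the files (mm9). Promoters are RefSeq's (GRCm38.p6). A further correlated gene and a further probe sequence are not reported here.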

Additional observations from a re-analysis of the deposited data

Results flagged for a closer look

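The effect of the Hdac6 hairpin differed between cells with and without the Tip60 hairpin in 10 of the 29 tested imprinted genes, where 22.0% of all genes differed. This test, the interaction in limma at an adjusted p under 0.1, was added after seeing the data. Each value below is the log2 change from Tip60 KD to double KD minus that from control KD to Hdac6 KD.

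Mest gave -0.95 ± 0.14 (adjusted p = 0.015), because it rose by 1.15 upon Hdac6 KD and differed by 0.20 between double KD and Tip60 KD. For Ascl2 the value was 1.54 ± 0.24 (adjusted p = 0.017), for Cd81 0.72 ± 0.10 (adjusted p = 0.015) and for Igf2r 0.93 ± 0.18 (adjusted p = 0.028). These 4 calls held in all 19 alternative settings. In each, the change from control KD to Hdac6 KD was called and that from Tip60 KD to double KD was not, but with the replicate block the latter was for Igf2r (0.37, adjusted p = 0.021) and Mest (0.20, adjusted p = 0.052).

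Mirg gave -0.88 ± 0.20 (adjusted p = 0.040) and Grb10 -0.86 ± 0.18 (adjusted p = 0.033, with control KD at the floor), called in 14 of 19 and 16 of 18 settings. Tssc4 gave -0.70, Cdkn1c -0.60, Ppp1r9a 0.55 and Gnas -0.43, with limma adjusted p of 0.069, 0.088, 0.067 and 0.080, and they were called in 9, 5, 11 and 8 of 19. With the replicate block 17 genes were called, where 47.1% of all genes were. The 7 added were Peg10 (0.97), Sgce (0.36), Slc22a18 (0.27), Impact (0.26), Zrsr1 (-0.49), Phlda2 (-0.54) and Ndn (-0.70), with adjusted p of 0.0076 to 0.052. Hdac6 RNA was itself depleted less in double KD than upon Hdac6 KD, and the part of that in these values was not tested.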

How the results depend on the processing

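Of 12, 10 and 12 calls against control KD (Tip60 KD, Hdac6 KD, double KD), 9, 6 and 4 held in every alternative that gave a value, and 7 of 10 between the single KDs. There were 19, and 18 for Grb10 upon Hdac6 KD and in double KD. No call turned direction in any alternative. With the replicate block 19, 17 and 19 genes were called against control KD, 14 between the single KDs, 12 between double KD and Tip60 KD and 15 between double KD and Hdac6 KD. With a 2-fold minimum 5, 5 and 1 were called against control KD, 3 between the single KDs, 0 between double KD and Tip60 KD and 0 between double KD and Hdac6 KD. For double KD against control KD the deposited log2 table gave 7 and a fit of only the arrays compared 7. For double KD against Tip60 KD, normexp, the deposited table, the mean of a gene's probes, only the arrays compared and an adjusted p under 0.05 each gave 0, and quantile normalization gave 6. For double KD against Hdac6 KD, normexp and only the arrays compared gave 0, the deposited table and an adjusted p under 0.05 gave 1, and the low floor gave 3. The cause was not tested.

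Leaving out 1 array gave 10 to 12 calls for Tip60 KD, 8 to 10 for Hdac6 KD and 6 to 11 for double KD against control KD (6 without control KD replicate A, 7 without control KD replicate B and 7 without double KD replicate B), 7 to 9 between the single KDs, 0 for double KD against Tip60 KD whichever array was left out, and 0 to 2 for double KD against Hdac6 KD. A group left with 1 array was assumed to vary like the others. Over all genes, 672 differed between double KD and Tip60 KD, but 4748 with the block, 1217 with quantile normalization, 281 with the low floor, 117 in the deposited table, 1 with normexp and 0 with only the arrays compared. Against control KD 7201, 5240 and 5939 genes were called, and 11022, 9591 and 10045 with the block. Genes at the floor have no measured level there.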
